A study of Mus musculus with 9 samples.

Results

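The genes described here are the T cell co-receptor genes Cd4, Cd8a and Cd8b1 together with 7 genes of the transcription factors that set their expression: Zbtb7b, Runx1, Runx2, Runx3, Cbfb, Tox and Satb1. These 10 genes, of 25759 in the deposited table, were selected on their FPKM (fragments per kilobase of transcript, scaled to the mapped fragments of the library) in all 9 libraries, which were known when the genes were listed. Their levels and differences between groups are therefore given as a description, with no test of their own. All 10 reached a mean of 0.5 FPKM over the 9 libraries, the level from which genes entered the fit.

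CD4+ T cells of C57BL/6 mice aged 8 to 12 weeks were measured by RNA sequencing in 3 groups of 3 libraries, and every group carried a Foxp3GFP reporter that marks regulatory T cells. The naive wild-type (WT) group holds lymph node and spleen cells taken by sorting as CD4+CD44-CD62+ and reporter-negative. Activated WT cells came from a culture of all lymph node and spleen cells with 2 ug/ml of the mitogen ConA and 10 ng/ml of LPS for 3 days and were sorted as CD4+CD44+CD62- and reporter-negative. The knockout (KO) group was treated and sorted like the activated WT group but came from mice labelled BMPR1a/CD4cre, in which Cre recombinase is driven by the Cd4 promoter, itself the promoter of a gene described here. The labels name no gate on CD8 and do not say whether libraries of a group came from separate mice, so a p-value speaks only of the spread among the libraries at hand, which may be technical. Stimulation, culture and the CD44 and CD62 gates differ together between naive and activated cells and cannot be told apart.

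CD4 and CD8 are the surface co-receptors that help the T cell receptor bind MHC class II and class I molecules, and both bring the kinase Lck to the receptor. Developing T cells carry both and then keep a single one: ThPOK, encoded by Zbtb7b, holds the helper programme and represses the CD8 genes, while RUNX3 silences Cd4 and acts on the enhancers of Cd8a and Cd8b1. RUNX proteins bind DNA through a shared domain and in a complex with CBFB, whereas TOX and SATB1 act earlier in the thymus, TOX being needed for the CD4 lineage and SATB1 organising chromatin at genes of the lineage choice.

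The libraries held 12922 to 13395 genes at or above 1 FPKM. How many reads stand behind a value is unknown, so no counting interval can be given. All 12 T cell identity markers stood at 1 FPKM or more in every library. Libraries of the naive group differed in markers of other cells: naive library 2 had the highest summed level of 9 myeloid markers, 797 FPKM against 69.5 and 154, and naive library 3 the highest summed level of 13 dendritic cell markers, 1037 FPKM against 222 and 161. The targeted gene Bmpr1a was read at 2.16, 2.92 and 1.40 FPKM in activated WT and at 0.957, 1.93 and 1.20 FPKM in KO libraries, which overlap, and a gene-level value also holds reads from exons outside a deleted part.

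RUNX proteins recognise the letters TGTGGT, or ACCACA on the other strand, and the promoters of the RUNX genes themselves were examined for them because these sequences played no part in the choice of the genes. RefSeq promoter windows of 300 bases around a transcription start (GRCm38.p6) were matched for 7 of the 10 genes, 14 windows in all. The core letters were present in 4 of the 14 windows, 1 each of Zbtb7b, Runx1, Runx2 and Runx3, against 16.8% of all 32851 windows and 18.9% of their 27025 genes, on either strand. The wider letters TGNGGT, which include the core, were in 9 of 14 windows and 6 of the 7 genes, against 45.8% of all windows and 49.1% of genes. In each of the 3 RUNX genes the core occurred as a pair with 2 bases between, shown here with 8 bases on either side, 5′ to 3′ on the strand of the gene, core sites in capitals, and with the single site of Zbtb7b for comparison.
Runx1: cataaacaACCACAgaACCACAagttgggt
Runx2: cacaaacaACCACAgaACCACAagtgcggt
Runx3: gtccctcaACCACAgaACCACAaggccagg
Zbtb7b: ctggcgaggaacTGTGGTatgtgagtgggt

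The stretches lie at chr16:92826025-92826054 (minus strand) for Runx1, chr17:44814583-44814612 (minus) for Runx2, chr4:135120503-135120532 (plus) for Runx3 and chr3:89387743-89387772 (minus) for Zbtb7b. The pair began at base 29 of the Runx1 and base 24 of the Runx2 transcript, in exons of 2 Runx1 and 4 Runx2 transcripts in the GENCODE annotation. In Runx3 it began 134 bases before the start, outside any annotated transcript. The Zbtb7b site lay 89 bases before a start inside the gene, in an intron of 6 transcripts. The Runx1 and Runx2 stretches were identical at 27 of 30 bases, Runx1 and Runx3 at 19 and Runx2 and Runx3 at 21. The longest run shared by all 3 was the 18 bases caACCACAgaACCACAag. Runx1 and Runx3 each have a second RefSeq start further along the gene, 128745 and 31900 bases away, and those windows held no core letters. The arrangement ACCACANNACCACA, which was looked for after the RUNX windows had been seen, was present in 7 of 32851 windows (0.0213%), those of Runx1, Runx2, Runx3, Gm12236, Gm15462, Olfr24 and Gm16225, whose window overlaps that of Runx3 on the other strand. A match is a description of letters, and binding was not measured here.

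Naive and activated WT cells differed at most of the 10 genes. Cd8a, Cd8b1, Runx2, Runx3 and Satb1 were higher in activated cells, Zbtb7b, Runx1 and Tox were lower, Cd4 was slightly higher, and Cbfb overlapped between the groups. In the limma fit of all 15126 tested genes, 8 of the 10 were called at an adjusted p under 0.05, against 52.0% of tested genes (26.2% higher and 25.8% lower in activated cells). Libraries of the groups did not overlap for 9 of the 10, 6 higher and 3 lower, against 59.4% of tested genes (29.6% higher and 29.8% lower). The genes were chosen with this contrast known, so nothing is read from these counts. The median difference of the 10 genes was 0.50 on the log2(FPKM + 1) scale, against -0.0091 over all tested genes. Differences on this scale understate the change of genes at low levels.

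**Figure D1:**
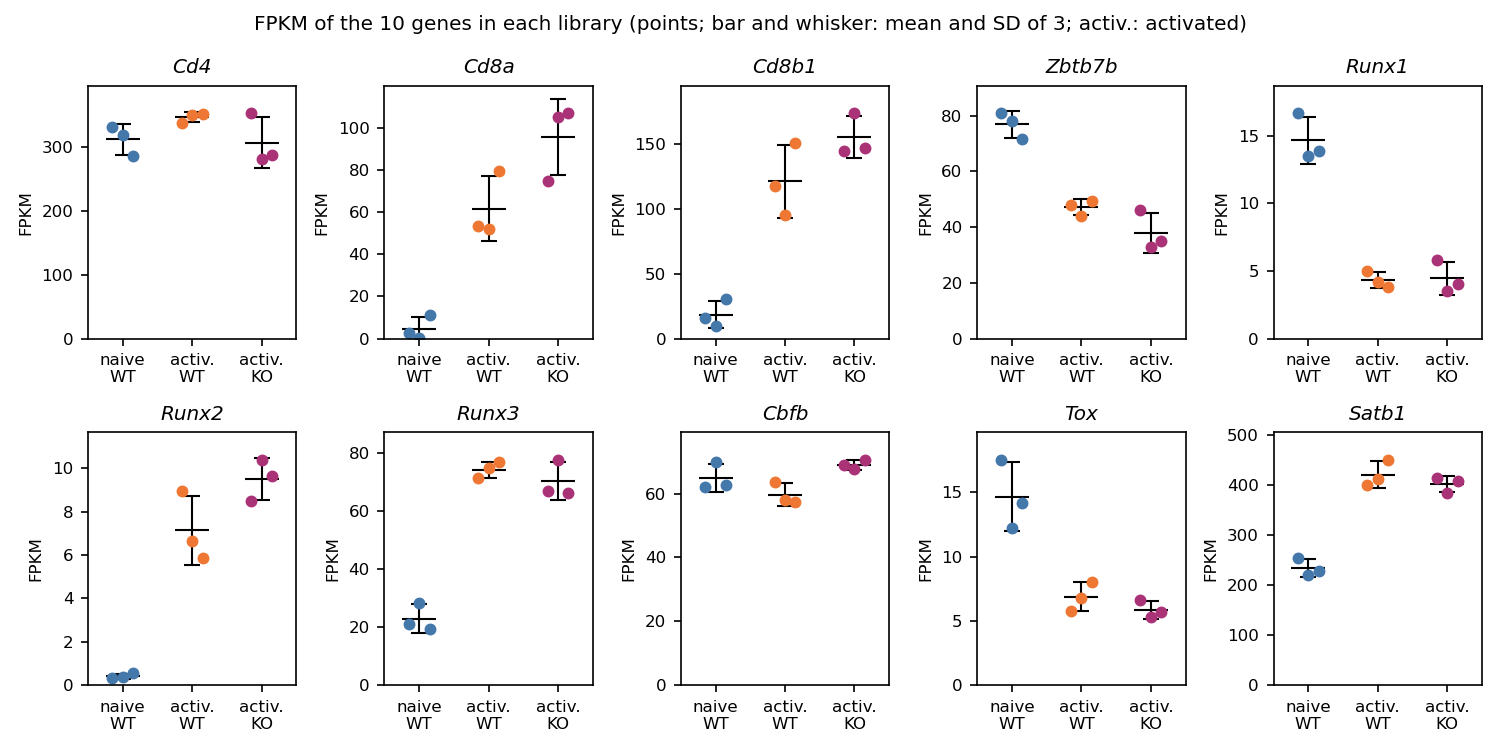
FPKM of each of the 10 genes (1 panel per gene, linear axis from 0) in naive WT, activated WT and activated KO libraries, with a point per library and the mean and SD of each group of 3. Cd8a, Cd8b1, Runx2 and Runx3 lie lower in naive cells than in both activated groups, and Zbtb7b, Runx1 and Tox lie higher in naive cells. Cbfb stays between 57.3 and 70.7 FPKM in all libraries.

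Among the co-receptors, Cd4 (ENSMUSG00000023274, chromosome 6 from 124864692 to 124888221, minus strand, GRCm38), whose protein the cells were sorted on, was read at 331, 319 and 285 FPKM in naive libraries and at 338, 350.4 and 352 FPKM in activated WT libraries. The groups did not overlap, but the means, 312 ± 23.8 and 347 ± 7.78 FPKM (SD, n = 3), differed by a factor of only 1.11, or 0.16 on the log2 scale (SE 0.101). In KO libraries Cd4 stood at 353, 280.3 and 287 FPKM, a range that spans the naive one. Cd4 was thus abundant in every library.

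Cd8a (ENSMUSG00000053977, chromosome 6 from 71373427 to 71379173, plus strand), which encodes the CD8 alpha chain, was read at 2.49, 0.0965 and 11.1 FPKM in naive libraries. The activated WT libraries held 53.4, 52.0 and 79.3 FPKM and the KO libraries 74.9, 105.2 and 106.9 FPKM. Every activated library lay above every naive library, and the 3 naive values differed among themselves more than those of either activated group relative to their mean. The mean was 4.57 ± 5.80 FPKM in naive and 61.5 ± 15.4 FPKM in activated WT cells, a ratio of 13.5 and a difference of 4.10 on the log2 scale (SE 0.739). Without naive library 2 the difference was 3.24, and without naive library 3 it was 4.97.

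Cd8b1 (ENSMUSG00000053044, chromosome 6 from 71322788 to 71337494, plus strand), which encodes the CD8 beta chain that pairs with the alpha chain on conventional CD8 T cells, was read at 15.8, 9.38 and 30.3 FPKM in naive libraries. It stood at 118, 94.9 and 151 FPKM in activated WT and at 145, 174 and 147 FPKM in KO libraries. As for Cd8a, naive library 2 was lowest, naive library 3 highest, and no activated library came down to the naive range. The mean was 18.5 ± 10.7 FPKM in naive and 121 ± 28.3 FPKM in activated WT cells, a ratio of 6.56 and a difference of 2.77 (SE 0.364). The difference was 2.39 without naive library 2 and 3.19 without naive library 3.

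Set against Cd4 in the same library, Cd8a amounted to 0.752%, 0.0303% and 3.90% of the Cd4 FPKM in naive cells, to 15.8%, 14.8% and 22.5% in activated WT cells and to 21.2%, 37.5% and 37.3% in KO cells. Cd8b1 amounted to 2.94% to 10.6% of Cd4 in naive, 27.1% to 43.0% in activated WT and 41.0% to 62.0% in KO libraries. Both CD8 transcripts thus stayed below Cd4 in each library. The ratio of Cd8a to Cd8b1 also differed: it was 0.158, 0.0103 and 0.367 in naive libraries and lay between 0.454 and 0.728 in the 6 activated ones, so the beta chain transcript was the more abundant of the 2 per length in all 9 libraries. In bulk RNA a change in the number of cells that hold a transcript and a change in its amount per cell cannot be told apart, here and for each gene below.

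**Figure D2:**
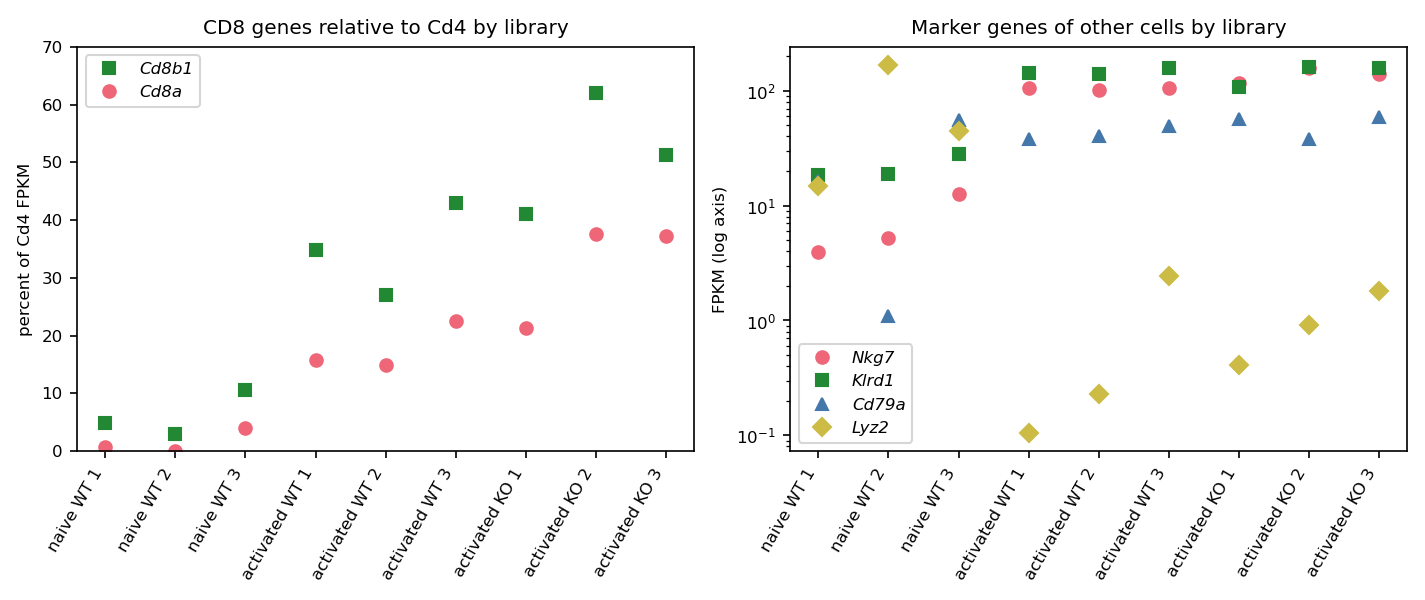
Left, Cd8a (circles) and Cd8b1 (squares) as a percent of the Cd4 FPKM in each library; both lie at or under 10.6% in naive libraries and between 14.8% and 62.0% in activated ones. Right, FPKM on a log axis of Nkg7 and Klrd1 (cytotoxic lineage), Cd79a (B cells) and Lyz2 (myeloid cells) in the same libraries; Cd79a is lowest in naive library 2, at 1.09 FPKM, and Lyz2 is highest there, at 166 FPKM.

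Markers of other cells were read in the same libraries, and their part in the CD8 values was not tested. The 16 CD8 T cell and cytotoxic lineage markers summed to 119 to 196 FPKM in naive, 602 to 683 in activated WT and 577 to 702 in KO libraries. Between naive and activated WT cells 9 of the 16 were called higher by limma, 2 were called lower and 5 were not called. The share called was 68.8%, against 52.0% of all tested genes (26.2% higher and 25.8% lower). Nkg7, a granule membrane protein of cytotoxic cells, went from 7.22 ± 4.66 to 104 ± 2.53 FPKM (log2 difference 3.82, adjusted p = 7.44e-05). Klrk1, which encodes the activating receptor NKG2D, went from 2.40 ± 0.354 to 29.4 ± 4.40 FPKM (3.15, adjusted p = 3.42e-06), and Klrd1, a partner chain of NKG2 receptors, from 21.8 ± 5.39 to 146 ± 9.24 FPKM (2.71, adjusted p = 3.45e-05). Prf1, which encodes the pore protein perforin, was called in the other direction, from 15.9 ± 2.14 to 5.15 ± 0.489 FPKM (-1.46, adjusted p = 0.000501). Of the 7 helper T cell markers 2 were called higher and 1 lower by limma (42.9%, against 52.0% of all tested genes). The costimulator Icos was higher (2.05, adjusted p = 8.29e-06), and Cd40lg, the ligand through which helper cells act on B cells, was lower (-1.26, adjusted p = 0.000238).

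Dendritic cells, some of which carry CD8 alpha without the beta chain, have defining transcripts that were at low levels in activated cells. Clec9a was listed at 0 in all 6 activated libraries, and Itgax was at or under 0.778 FPKM there. Xcr1 had higher means in activated than in naive cells, 0.388 FPKM in WT and 0.404 FPKM in KO against 0.0916 FPKM, and was at or under 0.488 FPKM in each activated library. The MHC class II genes of that list, which B cells also express, summed with the rest to 485 to 552 FPKM in activated WT and 469 to 747 FPKM in KO libraries. The 8 NK cell markers summed to 12.3 to 67.1 FPKM in naive and to 2.52 to 6.55 FPKM in activated libraries, with Ncr1 at or under 0.0584 FPKM in the latter. The 9 myeloid markers summed to 4.02 to 6.87 FPKM in activated libraries. Immature thymocyte markers summed to 30.9 to 40.7 FPKM in naive and to 15.6 to 23.9 FPKM in activated libraries. Most of it was Cd1d1, with means of 29.8 FPKM in naive, 16.1 in activated WT and 15.5 in KO cells. Dntt averaged 6.40 FPKM in naive cells, Rag1 and Rag2 averaged 0.00503 and 0.0198 FPKM, and Ptcra was listed at 0 there.

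B cell transcripts were present in every activated library, in which all 9 B cell markers reached 1 FPKM. Their summed level was 374, 277 and 609 FPKM in naive, 797, 690 and 1192 in activated WT and 1082, 634 and 842 FPKM in KO libraries, most of it Ighm, the IgM heavy chain gene. Cd79a, a signalling chain of the B cell receptor, stood at 16.5, 1.09 and 55.1 FPKM in naive libraries, in the same order as Cd8a. It stood at 37.7, 40.7 and 49.0 FPKM in activated WT and at 56.7, 37.7 and 58.7 FPKM in KO libraries. The order of Cd8a was another in both of these groups. H2-Ab1, an MHC class II gene, followed the order of Cd8a too in the naive libraries, with 30.8, 23.3 and 151 FPKM. It did not do so in activated WT (76.6, 81.2 and 63.3 FPKM) or KO libraries (83.9, 62.8 and 90.7 FPKM). The part of B cells in the CD8 values was not tested.

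The RUNX genes differed between naive and activated cells in opposite directions. Runx1 (ENSMUSG00000022952, chromosome 16 from 92601466 to 92826149, minus strand), a family member of early thymocytes, was read at 16.7, 13.5 and 13.8 FPKM in naive libraries. Activated WT libraries held 4.98, 4.18 and 3.83 FPKM. The groups were far apart, with means of 14.7 ± 1.74 and 4.33 ± 0.592 FPKM, a ratio of 0.295 and a difference of -1.56 (SE 0.166). KO libraries held 5.83, 3.49 and 4.07 FPKM, on both sides of the activated WT values.

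Runx3 (ENSMUSG00000070691, chromosome 4 from 135120652 to 135177990, plus strand), best known for the CD8 lineage and also active in helper T cells of type 1, was read at 21.0, 28.4 and 19.3 FPKM in naive libraries. It stood at 71.2, 74.7 and 76.8 FPKM in activated WT and at 67.0, 77.7 and 66.2 FPKM in KO libraries. All 6 activated values thus lay in a narrow band well above the naive ones. The means were 22.9 ± 4.87 and 74.2 ± 2.80 FPKM in naive and activated WT cells, a ratio of 3.24 and a difference of 1.67 (SE 0.136).

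Runx2 (ENSMUSG00000039153, chromosome 17 from 44495987 to 44814797, minus strand), the bone-forming member of the family, was low in naive cells, at 0.338, 0.350 and 0.545 FPKM. Activated WT libraries held 8.94, 6.64 and 5.84 FPKM and KO libraries 8.48, 10.4 and 9.63 FPKM. No activated library came near the naive values. The mean went from 0.411 ± 0.116 to 7.14 ± 1.61 FPKM in activated WT cells, a ratio of 17.4. The log2 difference was 2.51 (SE 0.148) with 1 added to each value and 3.83 with 0.1 added, since the naive level is below 1 FPKM.

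Both the RUNX sum and its make-up differed between naive and activated cells. Runx1, Runx2 and Runx3 together amounted to 38.1, 42.3 and 33.7 FPKM in naive, 85.2, 85.5 and 86.4 FPKM in activated WT and 81.3, 91.6 and 79.9 FPKM in KO libraries. Runx1 made up 39.0% ± 6.23 of the naive sum and 5.06% ± 0.726 of the activated WT sum, while Runx3 went from 59.9% ± 6.40 to 86.6% ± 2.66 and Runx2 from 1.11% ± 0.441 to 8.34% ± 1.94. Runx3 therefore held the largest share in all 9 libraries. The ratio of Runx3 to Runx1 was 1.26, 2.10 and 1.39 in naive and 14.3, 17.9 and 20.0 in activated WT libraries.

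Cbfb (ENSMUSG00000031885, chromosome 8 from 105170674 to 105217989, plus strand), whose protein stabilises RUNX proteins on DNA, did not follow them. It was read at 62.1, 69.8 and 62.9 FPKM in naive while activated WT libraries held 63.8, 58.0 and 57.3 FPKM, which overlap (means 64.9 ± 4.26 and 59.7 ± 3.56 FPKM, difference -0.12, SE 0.0675). The RUNX sum accordingly went from 0.585 ± 0.0428 of the Cbfb level to 1.44 ± 0.0922 times that level. Transcript levels per length are compared here, not proteins.

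**Figure D3:**
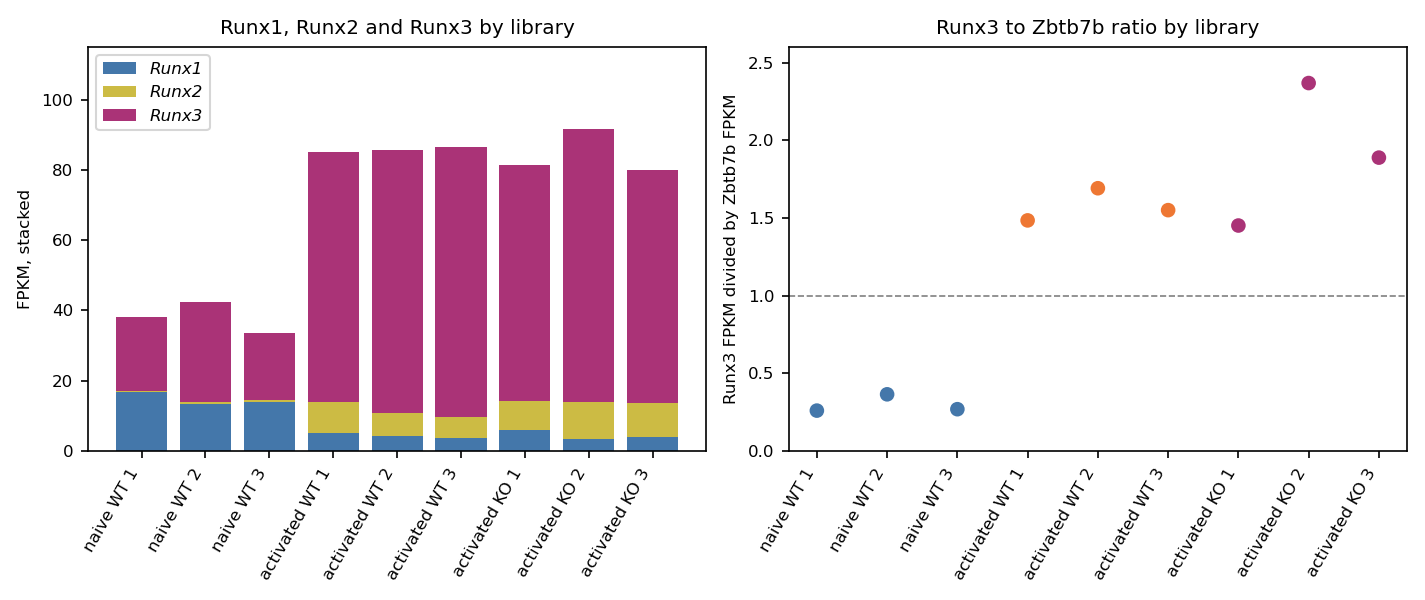
Left, stacked FPKM of Runx1, Runx2 and Runx3 in each library; the sums lie between 33.7 and 42.3 FPKM in naive and between 79.9 and 91.6 FPKM in activated libraries, and the Runx1 share shrinks. Right, Runx3 FPKM divided by Zbtb7b FPKM, with a dashed line at equal levels; naive libraries lie at or under 0.365 and activated ones at or above 1.45.

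Zbtb7b (ENSMUSG00000028042, chromosome 3 from 89377644 to 89394776, minus strand) was read at 81.0, 78.0 and 71.7 FPKM in naive libraries. Activated WT libraries held 48.0, 44.2 and 49.5 FPKM and KO libraries 46.2, 32.8 and 35.1 FPKM. All activated values lay below all naive ones, yet the lowest of them was still 32.8 FPKM. The means were 76.9 ± 4.76 and 47.2 ± 2.76 FPKM in naive and activated WT cells, a ratio of 0.615 and a difference of -0.69 (SE 0.124). Relative to Zbtb7b, Runx3 stood at 0.260, 0.365 and 0.269 in naive, 1.48, 1.69 and 1.55 in activated WT and 1.45, 2.37 and 1.89 in KO libraries. The 2 genes thus changed order between naive and activated cells in every library.

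Tox (ENSMUSG00000041272, chromosome 4 from 6686353 to 6991557, minus strand), an HMG-box factor that in mature T cells is also linked to exhaustion, was read at 17.5, 12.3 and 14.2 FPKM in naive while activated WT libraries held 5.77, 6.77 and 8.05 FPKM. The groups did not overlap, with means of 14.7 ± 2.68 and 6.87 ± 1.14 FPKM, a ratio of 0.468 and a difference of -0.99 (SE 0.154). KO libraries held 6.65, 5.28 and 5.70 FPKM.

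Satb1 (ENSMUSG00000023927, chromosome 17 from 51736187 to 51833290, minus strand) was read at 254, 219.7 and 228 FPKM in naive libraries. It stood at 399, 412 and 450.5 FPKM in activated WT and at 414, 384 and 408 FPKM in KO libraries. Every activated library lay above every naive one. The means were 234 ± 17.8 and 420.5 ± 26.8 FPKM in naive and activated WT cells, a ratio of 1.80 and a difference of 0.85 (SE 0.0789).

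FPKM is per length, so the genes can be ordered within a group. In naive cells the order was Cd4, Satb1, Zbtb7b, Cbfb, Runx3, Cd8b1, Runx1, Tox, Cd8a and Runx2. The ranges of neighbours from Runx3 to Tox overlapped, as did those of Cd8a and Runx2. In activated WT cells the order was Satb1, Cd4, Cd8b1, Runx3, Cd8a, Cbfb, Zbtb7b, Runx2, Tox and Runx1, with overlap from Runx3 to Cbfb and between Runx2 and Tox. The KO order differed from this by Cd8a standing before Runx3, and there too the ranges of Cd8a, Runx3 and Cbfb overlapped from neighbour to neighbour. Cd8b1 thus moved from the sixth to the third place and Runx1 from the seventh to the last.

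The comparison of KO with activated WT cells asked whether loss of the BMP receptor changed these levels. Libraries overlapped for 9 of the 10 genes, and none was called by limma. An unadjusted limma p under 0.05 was found for 3 of the 10, against 3786 of all 15126 tested genes. Among all tested genes 4.14% were called (3.30% higher and 0.840% lower in KO) and 31.2% had libraries that did not overlap (22.8% higher and 8.36% lower). Because the genes were selected on all 9 libraries, nothing is read from these counts either. The median difference of the 10 genes was -0.023, against 0.058 over all tested genes. The 626 calls behind the 4.14% ran from 58 to 3851 over the alternatives. Both comparisons share the activated WT libraries.

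Cbfb was the gene whose KO libraries, at 69.0, 67.6 and 70.7 FPKM, all lay above the activated WT ones, at 63.8, 58.0 and 57.3 FPKM. The means were 69.1 ± 1.56 and 59.7 ± 3.56 FPKM, a difference of 0.21 (SE 0.0675). After median-of-ratios scaling, which takes out a general shift between libraries, the KO libraries still lay above, at 66.4 to 68.3 against 58.3 to 65.7 FPKM, with a difference of 0.13.

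Cd8a and Cd8b1 had higher means in KO cells, 95.7 ± 18 against 61.5 ± 15.4 FPKM and 155 ± 16.2 against 121 ± 28.3 FPKM. The differences were 0.64 (SE 0.739) and 0.37 (SE 0.364), and libraries overlapped. These standard errors come from the fit of all 9 libraries and so also hold the spread of the naive group. For Cd8a the SD was 127% of the mean in naive, 25.0% in activated WT and 18.8% in KO libraries. For Cd8b1 it was 58.0%, 23.3% and 10.5%. The standard errors of these 2 genes therefore do not measure the spread of the compared libraries alone. Runx2 was 9.51 ± 0.973 FPKM in KO and 7.14 ± 1.61 FPKM in activated WT cells (difference 0.38, SE 0.148), also with overlap. Runx3 (-0.08, SE 0.136), Tox (-0.19, SE 0.154) and Runx1 (0.02, SE 0.166, negative after both scalings) differed by little more than their standard error or less. Zbtb7b was 38.0 ± 7.17 FPKM in KO cells (difference -0.32, SE 0.124), Cd4 306.5 ± 40.1 FPKM (-0.18, SE 0.101) and Satb1 402 ± 15.9 FPKM (-0.06, SE 0.0789, and above 0 after quantile normalization). These 3 overlapped with activated WT as deposited. After median-of-ratios scaling their KO libraries lay wholly below, with Zbtb7b at 32.3 to 44.6 against 45.4 to 50.4 FPKM. The share of all tested genes without overlap after this scaling was not computed. Nothing is therefore read from the scaled ranges, for these 3 or for Cbfb. Of the gamma delta and invariant T cell markers, which summed to 2.95 to 3.24 FPKM in activated WT and 7.25 to 11.4 FPKM in KO libraries, Tcrg-C2 was called higher in KO cells (3.52 against 0.897 FPKM, limma adjusted p = 0.0392, a call lost under 10 of 19 alternatives, range 0.00937 to 0.143); their part in the KO values was not tested. KO library 1 was the highest of its group for Cd4 and Zbtb7b and the lowest for Cd8a, Cd8b1 and Runx2.

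**Figure D4:**
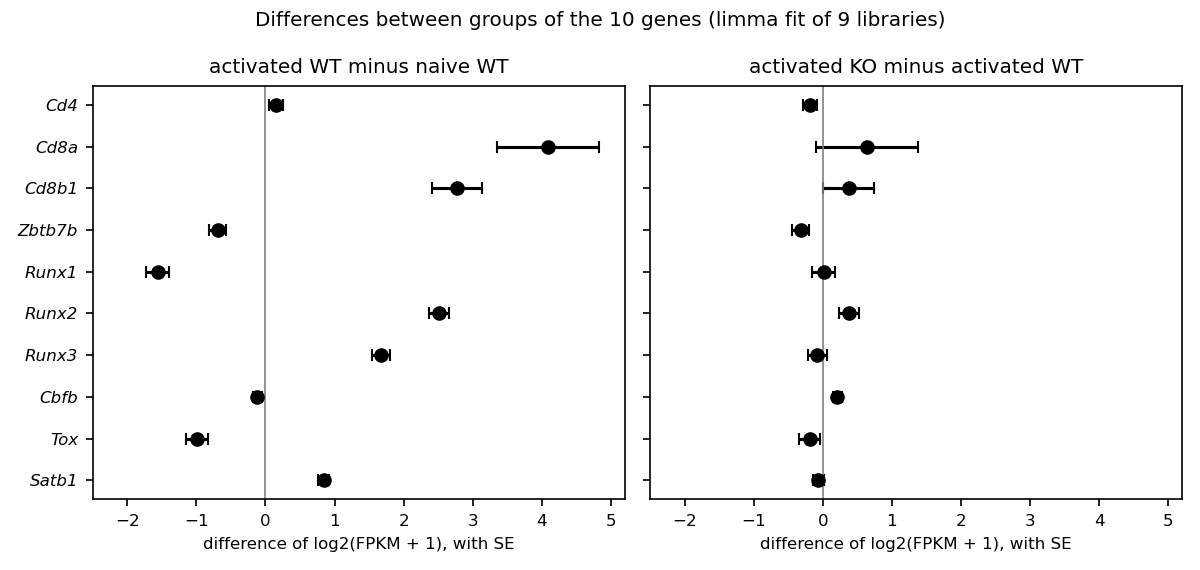
Difference of log2(FPKM + 1) with its standard error from the limma fit of 9 libraries, for activated WT minus naive WT (left) and activated KO minus activated WT (right), on the same axis for the 10 genes. On the left the values run from -1.56 (Runx1) to 4.10 (Cd8a), and on the right from -0.32 (Zbtb7b) to 0.64 (Cd8a).

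Genes around the 10 were taken from lists of regulators, cofactors, relatives and RUNX-regulated genes, 50 of which were tested. Between naive and activated WT cells 17 of the 50 were called higher and 16 lower by limma (66.0%, against 52.0% of all tested genes), with a median difference of 0.025 against -0.0091. Between KO and activated WT cells 3 were called higher and 1 lower (8.00%, against 4.14%), with a median of 0.050 against 0.058.

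Of the 22 regulators of the CD4 and CD8 lineages, 8 were called higher and 5 lower in activated cells and 9 were not called. Myb, a factor of early thymocytes, rose from 10.3 ± 0.610 to 32.9 ± 9.12 FPKM (log2 difference 1.56, limma adjusted p = 0.000504), and Ikzf3, which encodes the zinc finger protein Aiolos, from 34.6 ± 2.69 to 101 ± 11.9 FPKM (1.52, adjusted p = 3.23e-05). Tcf3, which encodes the E proteins E12 and E47, rose by a smaller amount (0.70, adjusted p = 0.000819). Bcl11b, a factor that keeps T cell identity, fell from 62.5 ± 9.05 to 27.1 ± 2.67 FPKM (-1.17, adjusted p = 0.000178). In KO cells only Smarca4 of this list was called, an ATPase of the BAF chromatin remodelling complex, at 35.5 ± 0.564 against 28.3 ± 0.930 FPKM (0.31, adjusted p = 0.0338). That call was lost under 10 of 19 alternatives, over which the adjusted p ran from 0.00542 to 0.135.

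Of the 14 tested RUNX cofactors and modifiers, 3 were called higher and 7 lower in activated cells. Pim1, a kinase reported to act on RUNX proteins, rose from 37.7 ± 4.74 to 134 ± 12.2 FPKM (log2 difference 1.80, limma adjusted p = 8.97e-05), and Hipk2, another such kinase, from 4.14 ± 1.32 to 10.1 ± 1.51 FPKM (1.13, adjusted p = 0.00192). Smurf2, a ubiquitin ligase, fell from 29.4 ± 5.94 to 9.01 ± 0.419 FPKM (-1.59, adjusted p = 5.33e-05), and the acetyltransferase gene Crebbp from 17.2 ± 4.37 to 8.16 ± 0.907 FPKM (-0.97, adjusted p = 0.00264). None of the 14 was called by limma in KO cells, where 4 had an unadjusted p under 0.05, against 3786 of all 15126 tested genes.

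Of 11 tested genes that RUNX factors are known to regulate in T cells, 4 were called higher and 4 lower in activated cells. Tbx21, which encodes T-bet, rose from 0.943 ± 0.368 to 29.2 ± 1.49 FPKM (log2 difference 3.98, limma adjusted p = 2.83e-06). Gzmb, which encodes granzyme B, went from 1.08 ± 0.359 to 232 ± 97.5 FPKM (6.74, adjusted p = 7.68e-05), and Itgae, the CD103 integrin chain, from 0.793 ± 0.536 to 5.91 ± 2.91 FPKM (1.90, adjusted p = 0.00294). Prf1 fell, as given above. In KO cells Eomes (4.54 against 1.83 FPKM, adjusted p = 0.0323) and Foxp3 (4.14 against 0.958 FPKM, adjusted p = 0.0351) were called higher; both are at low levels and are named after their values were seen. The call of Eomes was lost under 8 of 19 alternatives (adjusted p from 0.00554 to 0.13) and that of Foxp3 under 9 of 19 (0.0056 to 0.132). Of the 16 cytotoxic markers, 2 were called higher in KO cells and none lower (12.5%, against 4.14% of all tested genes). Besides Eomes this was Klrk1, at 51.4 ± 1.24 against 29.4 ± 4.40 FPKM (0.80, limma adjusted p = 0.0232). That call was lost under 5 of 19 alternatives (range 0.00406 to 0.0999). KO libraries lay wholly above for 4 of the 16, against 22.8% of all tested genes. They lay wholly below for 2, against 8.36%: Gzma (25.7 against 53.5 FPKM) and Ctsw (130 against 163 FPKM), neither of them called.

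Co-receptors act through Lck, and of 16 genes of that signalling step 8 were called higher and 3 lower in activated cells. The share called was 68.8%, against 52.0% of all tested genes. Ptpn22, a phosphatase that restrains Lck, rose from 62.8 ± 14 to 159 ± 7.48 FPKM (log2 difference 1.35, limma adjusted p = 0.000342), and Unc119, an adaptor of Lck, from 9.39 ± 1.68 to 20.6 ± 2.66 FPKM (1.06, adjusted p = 0.000758). Themis, a T cell receptor signalling adaptor, rose from 42.1 ± 5.58 to 83.1 ± 15.3 FPKM (0.96, adjusted p = 0.00203). No gene of this list was called by limma in KO cells. An unadjusted p under 0.05 was found for 3 of the 16, against 3786 of all 15126 tested genes.

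**Figure D5:**
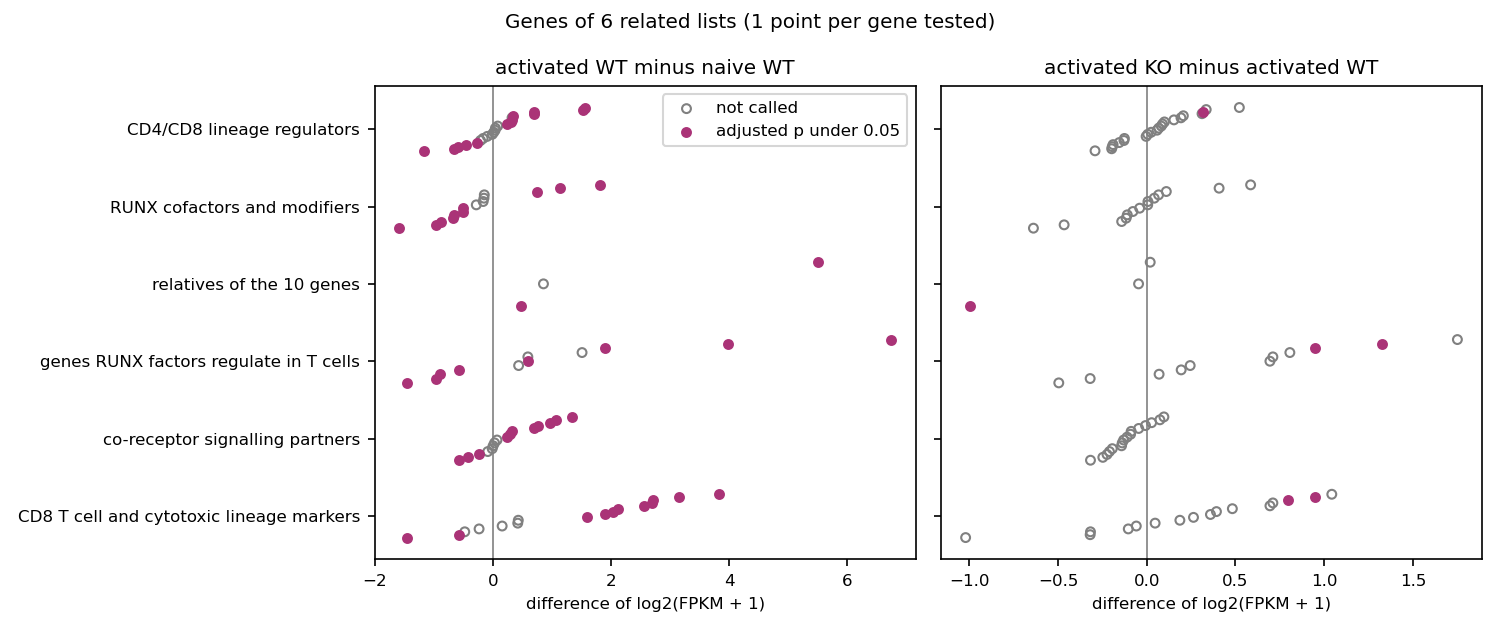
Difference of log2(FPKM + 1) for each tested gene of 6 lists around the 10 genes, with a point per gene, filled where the limma adjusted p was under 0.05; the left and right panels have different axis ranges. On the left the points run from -1.59 (Smurf2) to 6.74 (Gzmb), and on the right 6 points are filled, with Lag3 at -0.999 and Eomes shown in 2 lists.

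A list of 7 genes held relatives of the 10 genes and also Runx1t1, which despite its name is not a member of the RUNX family. Of the 7, 3 were tested. Tox4 (20.4 ± 1.43 to 28.5 ± 0.959 FPKM, log2 difference 0.47, limma adjusted p = 0.000774) and Lag3 were called higher in activated cells, and Tox2 was not called. Zbtb7c, a relative of Zbtb7b, was listed at 0 in all 9 libraries.

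Position on the chromosome played no part in the choice of the genes, and the nearest tested neighbours differed from locus to locus. Lag3, a relative of Cd4 that encodes an inhibitory receptor for MHC class II, lies 16140 bp from Cd4. It rose from 3.40 ± 1.59 to 192 ± 12.4 FPKM on activation (log2 difference 5.51, limma adjusted p = 4.03e-06), while Cd4 beside it differed by 0.16. In KO cells Lag3 was lower, at 95.2 ± 3.50 FPKM (-0.999, SE 0.217, adjusted p = 0.0478), a call lost under 12 of 19 alternatives (adjusted p 0.00534 to 0.164). On the other side of Cd4, Cdca3, a cell cycle gene 30991 bp away, rose from 1.98 ± 0.277 to 76.9 ± 21.9 FPKM (4.68, adjusted p = 6.72e-06).

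Cd8b1 and Cd8a lie 35933 bp apart on the same strand. Smyd1, a methyltransferase gene 555 bp from Cd8b1, was at 0.0240 ± 0.0233 FPKM in naive and 1.19 ± 0.364 FPKM in activated WT cells (log2 difference 1.08, limma adjusted p = 0.00136). Rmnd5a, 9461 bp beyond Cd8a, stood at 32.8 ± 3.03 and 36.3 ± 1.94 FPKM (0.15, adjusted p = 0.216). Of the neighbours of the CD8 pair, the low-level Smyd1 was thus called and Rmnd5a was not.

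At Runx3, Clic4, a chloride channel gene 35979 bp downstream, rose from 7.60 ± 0.723 to 28.6 ± 3.27 FPKM (log2 difference 1.78, limma adjusted p = 2.48e-05). Gm16225, a gene on the other strand whose start lies 205 bp before the Runx3 gene, was listed at 0, 0 and 0.586 FPKM in naive and read at 2.09, 4.27 and 3.04 FPKM in activated WT libraries (adjusted p = 0.00127). Its window is the head-to-head partner that shares the pair of core sites with Runx3. Zbtb7b, Runx1, Runx2, Runx3, Tox and Satb1 also overlap genes on the other strand, and the strand setting of the counting is not given, so reads of such partners cannot be told apart. The most abundant partner was Supt3 across Runx2, at 6.48 to 8.67 FPKM in naive and 9.09 to 12.5 FPKM in activated WT libraries, above Runx2 in each of the 9 libraries.

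Likeness over the 9 libraries was measured as the root mean square difference of centred log2(FPKM + 1) values among 8017 genes with a mean of 5 FPKM or more, as a description. Nearest to Cd8a were Nkg7 (0.650), the chemokine receptor gene Cxcr3 (0.684) and the oxidase subunit gene Ncf1 (0.761). Nearest to Cd8b1 were Haao (0.308), the calcium pump gene Atp2b4 (0.318) and the transcription factor gene Irf4 (0.327). Cd8a had no gene as near as those of the other members examined. Nearest to Runx3 were Ubald2 (0.145), Eif4e3 (0.156) and Phlpp1 (0.165), and nearest to Zbtb7b were Ripor2 (0.0796), Itpkb (0.0817) and Arhgap4 (0.0832), of which Ripor2 stood at 133, 84.7 and 62.6 FPKM in naive, activated WT and KO cells. Among the 10 genes the closest were Zbtb7b and Tox (0.195) and Cd4 and Cbfb (0.204). Cd8a and Cd8b1 stood at 0.834, farther apart than Cd8b1 and Runx2 (0.424).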

How the data were processed

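The FPKM values were deposited by the authors as a table of 9 library columns. They were made with TopHat2, Cufflinks and Cuffdiff on GRCm38, per the submitters' processing notes. Tool versions, gene annotation, strand setting and the use of reads with several matches are not given in the sources. Values are fractional estimates, so depth is unknown, no intervals or floors were computed, and a 0 is only listed as such. Gene symbols matched 24876 of 25759 identifiers, and positions come from GENCODE vM21.

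The 15126 genes that averaged 0.5 FPKM or more were fitted with limma 3.58.1 (R 4.3.3) after a log2(FPKM + 1) transform (moderated test with intensity trend, two-sided, all 9 libraries, group means), with Benjamini-Hochberg adjustment over all tested genes and calls at an adjusted p under 0.05. The script was tested on simulated data. The 10 genes and all lists were chosen with earlier results of these data known. From each list up to 4 called genes per comparison were named, by largest difference, if libraries did not overlap and the higher group reached 5 FPKM. Other names follow position, likeness or marker level. Of the list symbols, Cbfa2t3, Prmt1 and Trdc were not matched and are not analysed here, and Tle5 is in the table as Aes. Alternatives were 2 other pseudocounts, 2 other filters, 2 scalings, array quality weights, no trend, a replicate block, the 6 compared libraries alone and leaving out each library, 19 per comparison. No value came from columns of other samples.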

Additional observations from a re-analysis of the deposited data

How the results depend on the processing

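Of the 20 differences of the 10 genes, 18 kept their sign under all 19 alternatives; those of Runx1 (6 alternatives) and Satb1 (quantile normalization) between KO and activated WT did not. Of 43 calls of named genes outside the 10 (41 genes), 34 held under each alternative in which the gene was tested; Lag3, Smarca4, Klrk1, Eomes, Foxp3 and Tcrg-C2 in KO cells and Fcer1g, Cd1d1 and Ighm on activation did not. Calls between activated and naive WT ran from 6702 to 10105 (7863 as reported), and those among the 50 list genes from 28 to 43 (33 as reported). Between KO and activated WT, 626 genes and 4 list genes were called. The genes called were 416 with no filter, 306 with median-of-ratios scaling, 324 with quantile normalization, 3851 with array quality weights and 92 in the 6 libraries alone, and the list genes called were 1 with no filter, 14 with array quality weights and 1 in the 6 libraries alone. Leaving out a library gave 64 to 1037 genes and 0 to 7 list genes: 143 and 407 genes without naive 1 or 2, 283, 64 and 239 without activated WT 1, 2 or 3, and 1037, 93 and 69 without KO 1, 2 or 3. Of these calls 79.7% were higher in KO as deposited, 54.2% after median-of-ratios scaling, 56.5% after quantile normalization and 54.4% without activated WT library 3. Activation calls were 50.4% higher, and 44.0% after quantile normalization. The causes were not tested. Depth limits what can be said at low levels, and it is unknown.

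Libraries with the same number correlated by 0.0027 to 0.054 in their deviations from group means. Those with different numbers correlated by -0.0682 to 0.0375. Correlations this small cannot show whether libraries with the same number share an animal or a day. With the number as a replicate block, 58 genes and 0 list genes were called between KO and activated WT, and 7447 and 32 between activated and naive WT.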
